A study of Mus musculus with 2 samples.

Results

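Tubulin isotypes are the products of separate genes for the same chain of the microtubule, and 10 of them were followed here in RNA from newborn mouse hearts: the alpha-tubulin genes Tuba1a, Tuba1b, Tuba1c and Tuba4a, and the beta-tubulin genes Tubb2a, Tubb2b, Tubb3, Tubb4b, Tubb5 and Tubb6. They were chosen by symbol, through the gene identifiers of the tables, and all 10 were found among the 43346 mouse genes. The series holds 2 libraries of 1 group: hearts of the B6NCrl strain at postnatal day 0, untreated as far as the labels say, with replicate 1 from pup 1 and replicate 2 from pup 3, both under the same donor identifier. Only RNA over 200 nt was used, at 13 pg per library, an amount the labels equate with 1 cell, although it came from the tissue of a heart and not from an isolated cell. No control exists, so no test between groups was possible, and a difference between the libraries joins heart, aliquot and amplification, which cannot be told apart. Each value below is given for replicate 1 and then replicate 2, with the mean ± SD (n = 2).

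Microtubules are polymers of a heterodimer that holds 1 alpha and 1 beta chain. Chains are folded by the chaperonin, joined by a set of cofactors, and their mRNAs are degraded when free dimer is abundant, through recognition of the first residues of the growing chain by TTC5. Isotypes of a chain are least alike at the acidic tail at the C terminus, where enzymes remove or restore a last tyrosine on alpha chains and add glutamates or glycines, and where motors and binding proteins meet the polymer. In heart muscle, microtubules run between the myofibrils and around the nucleus, and the spindle of dividing myocytes, which are still found around birth, is built of the same dimers.

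The ends of the reading frames of 7 members are printed first, because most pairs of isotypes are less alike there than over the rest of the chain, while the near-identical Tubb2a and Tubb2b are alike there in protein and must share reads. Each is the last 60 bases of the frame, stop codon included, in the sense of the gene and read from the mm10 assembly (GENCODE M21 models). All lie in exon 4 of 4. In the alpha genes the capitals mark the last codon before the stop. Tuba1c, plus strand, is chr15:99037950-99038009. Tuba4a, minus strand, is chr1:75215622-75215681.
Tuba1c: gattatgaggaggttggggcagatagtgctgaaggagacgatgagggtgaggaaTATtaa
Tuba4a: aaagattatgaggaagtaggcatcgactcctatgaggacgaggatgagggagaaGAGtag

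Tuba1c ends in a tyrosine codon, TAT, as the other Tuba1 genes do in a tyrosine codon, while Tuba4a ends in GAG, a glutamate codon, and so lacks the encoded tyrosine. All 4 alpha frames hold a lysine at residue 40, the residue acetylated in stable microtubules.

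In the beta genes the capitals mark the codons for glutamate and aspartate, which make the tail acidic. The positions are chr13:34074468-34074527 for Tubb2a, chr13:34127471-34127530 for Tubb2b, chr2:25222308-25222367 for Tubb4b and chr17:35834982-35835041 for Tubb5, all on the minus strand, and chr8:123421623-123421682 for Tubb3 on the plus strand.
Tubb4b: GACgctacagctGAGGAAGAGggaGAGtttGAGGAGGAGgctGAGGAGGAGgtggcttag
Tubb5: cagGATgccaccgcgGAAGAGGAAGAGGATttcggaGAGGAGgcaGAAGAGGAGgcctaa
Tubb2a: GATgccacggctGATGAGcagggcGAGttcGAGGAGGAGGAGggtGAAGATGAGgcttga
Tubb2b: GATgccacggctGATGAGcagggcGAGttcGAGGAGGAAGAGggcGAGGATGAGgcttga
Tubb3: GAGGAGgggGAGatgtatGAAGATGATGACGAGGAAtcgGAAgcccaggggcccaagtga

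The tails of Tubb2a and Tubb2b encode the same residues, and their bases differ at 3 positions, G39A, T45C and A48G, counted from 1 at the first printed base, with the Tubb2a base first. Of the 19 residues encoded in each printed stretch, 10 or 11 are glutamate or aspartate. Over the whole frame, Tuba1a and Tuba1b were 99.6% identical in protein with 2 differing residues, and so were Tubb2a and Tubb2b. Across the 15 beta pairs protein identity ran from 90.2% to 99.6%, but in the tail from 15% to 100%. Tubb3 and Tubb2a share only 15% of tail residues. All 10 frames open with Met-Arg-Glu, followed by Cys in the 4 alpha genes and by Ile in the 6 beta genes, the residues that TTC5 reads.

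The alpha-tubulin mRNA of the newborn heart was mostly that of Tuba1b and Tuba1a. Tuba1b (mm10 chromosome 15, 98931425 to 98934565, minus strand) had a level of 902 in replicate 1 and of 952 in replicate 2, in TPM (transcripts per 1000000 over mouse genes), a mean of 927 ± 35.0 TPM (SD, n = 2). Tuba1a, 15.272 kb from it (98949837 to 98953703, minus strand), had 693 and 720 TPM, a mean of 706 ± 19.3 TPM. Both were close in the libraries, and by level they ranked 148 and 137 (Tuba1b) and 205 and 177 (Tuba1a) of 21474 protein-coding genes. In bulk RNA, fewer cells of a type and less RNA per cell cannot be told apart, so these are levels of the heart, not of 1 cell type.

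Tuba1c, the third gene of the chromosome 15 cluster (99029891 to 99038110, plus strand), stood lower, at 176 and 165 TPM, a mean of 171 ± 7.64 TPM (SD, n = 2). Tuba4a, an alpha isotype of muscle among other tissues, on chromosome 1 (75214228 to 75219865, minus strand), was lowest, at 60.03 and 44.5 TPM, a mean of 52.3 ± 10.96 TPM. Within each library the order was the same, Tuba1b, Tuba1a, Tuba1c, Tuba4a. A neighbouring pair is described as apart when its log2 ratio has 1 sign in both libraries and a mean over 2 SD, which is a description and no test. By it all 3 alpha neighbours were apart: log2 Tuba1b over Tuba1a was 0.39 ± 0.01, log2 Tuba1a over Tuba1c was 2.05 ± 0.10, and log2 Tuba1c over Tuba4a was 1.72 ± 0.24.

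As shares of summed alpha TPM, Tuba1b took 49.3% and 50.6% (49.9% ± 0.924), and Tuba1a took 37.8% and 38.3% (38.05% ± 0.310). Tuba1c took 9.63% and 8.79% (9.21% ± 0.589). Tuba4a took 3.28% and 2.37% (2.82% ± 0.645). The 3 genes of the cluster, which spans 106.685 kb, thus held 96.7% and 97.6% of alpha TPM. These are also the members whose frame ends in tyrosine, so that 97.2% ± 0.645 of alpha mRNA (SD, n = 2) encoded a chain made with the tyrosine already in place. The files hold no protein, and how much of it kept that tyrosine was not measured.

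The beta-tubulin mRNA was led by Tubb4b and Tubb5, both made in many tissues. Tubb4b (chromosome 2, 25222160 to 25224702, minus strand) had 359 and 437 TPM, a mean of 398 ± 55.7 TPM (SD, n = 2). Tubb5 (chromosome 17, 35833921 to 35838306, minus strand), the main beta isotype of dividing cells, had 268 and 372 TPM, a mean of 320 ± 73.5 TPM. Tubb6, a divergent beta isotype made in many tissues (chromosome 18, 67390717 to 67402749, plus strand), had 159 and 222 TPM, a mean of 190 ± 44.7 TPM. All 3 read higher in replicate 2, by log2 differences of 0.29, 0.47 and 0.48 on log2(TPM + 1), each under 2-fold, and they stayed higher there under the other scalings tried.

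The other beta members were lower. Tubb2a (chromosome 13, 34074274 to 34078007, minus strand), an isotype of brain and several other tissues, had 141 and 126 TPM, a mean of 134 ± 10.7 TPM (SD, n = 2). Its neighbour Tubb2b, 48.741 kb away (34126748 to 34130466, minus strand) and best known from migrating neurons, stood at 41.2 TPM in replicate 1 but at 0.184 TPM in replicate 2. Tubb3, the beta isotype used as a marker of neurons (chromosome 8, 123411424 to 123422015, plus strand), had 1.23 and 0.388 TPM, on 70 and 19 expected counts. So 8 of the 10 members reached 1 TPM, the level at which a gene is called read here, in both libraries, Tubb2b and Tubb3 being the exceptions. Of all 43346 mouse genes, 8600 and 8854 reached it.

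**Figure D1:**
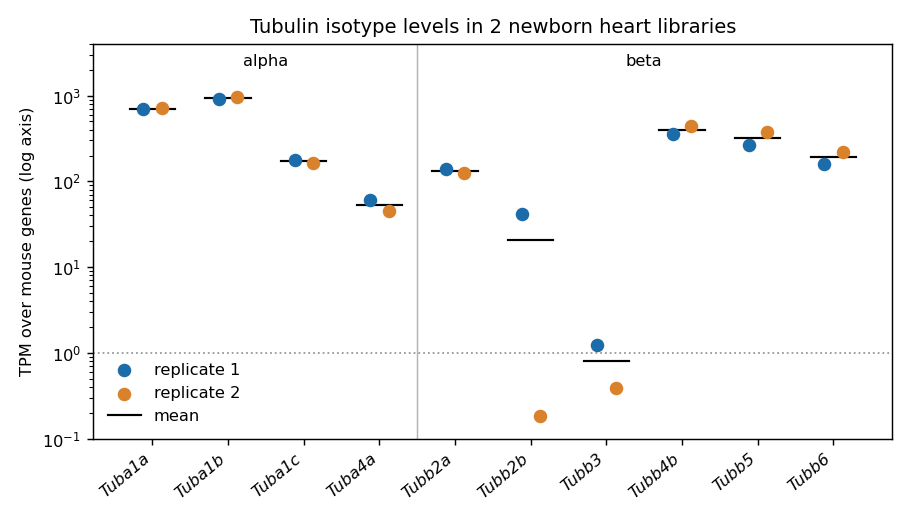
TPM over mouse genes on a log axis for the 4 alpha and 6 beta isotypes, with 1 point per library and a bar at the mean of the 2; the dotted line is 1 TPM. Tuba1b and Tuba1a lie highest in both libraries, at 693 to 952 TPM, and Tubb2b has 41.2 TPM in replicate 1 against 0.184 TPM in replicate 2.

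Of summed beta TPM, Tubb4b took 37.0% and 37.8% (37.4% ± 0.538), Tubb5 27.6% and 32.1% (29.9% ± 3.16), and Tubb6 16.4% and 19.2% (17.8% ± 1.97). Together these 3 held 81.1% and 89.1%. Tubb2a took 14.6% and 10.9% (12.7% ± 2.60). Tubb2b took 4.25% in replicate 1 and 0.0159% in replicate 2, and Tubb3 0.127% and 0.0336%. Exact Clopper-Pearson intervals at 95%, which cover counting error only, put Tubb2b at 4.09% to 4.42% of beta counts in replicate 1 and at 0.00698% to 0.0290% in replicate 2. A lack of overlap does not set Tubb2b apart, since of the members only Tubb4b had intervals that overlapped between the libraries. For Tuba1b they were 49.2% to 49.9% of alpha counts in replicate 1 and 51.0% to 51.7% in replicate 2. The intervals take each read as a separate draw, so they hold no error from the aliquot or from amplification.

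The order of Tubb4b, Tubb5, Tubb6 and Tubb2a was the same in both libraries, but fewer neighbouring pairs were apart than in the alpha chain. Tubb4b over Tubb5 (log2 0.33 ± 0.13) and Tubb5 over Tubb6 (0.75 ± 0.007) were apart by the rule above, while Tubb6 over Tubb2a (0.49 ± 0.46), Tubb2a over Tubb2b (5.60 ± 5.40) and Tubb2b over Tubb3 (1.99 ± 4.35) were not, so 2 of 5 beta pairs were apart. Tubb4b led per length only: in expected counts, where the longer Tubb5 transcript collects more reads, the log2 ratio was -0.43 and Tubb5 held 41.1% of the chain against 30.4% for Tubb4b. Tubb2b and Tubb3 changed places, with log2 Tubb2b over Tubb3 at 5.07 in replicate 1 and -1.08 in replicate 2.

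Over all 10 members, 6 of 9 neighbouring pairs were apart. Tuba1a stood above Tubb4b (log2 0.83 ± 0.16), Tuba1c above Tubb2a (0.36 ± 0.05) and Tubb2a above Tuba4a (1.37 ± 0.19). Tubb6 and Tuba1c (0.14 ± 0.41) did not differ beyond their spread, and neither did Tuba4a and Tubb2b (4.23 ± 5.22), although Tuba4a was higher in both libraries.

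**Figure D2:**
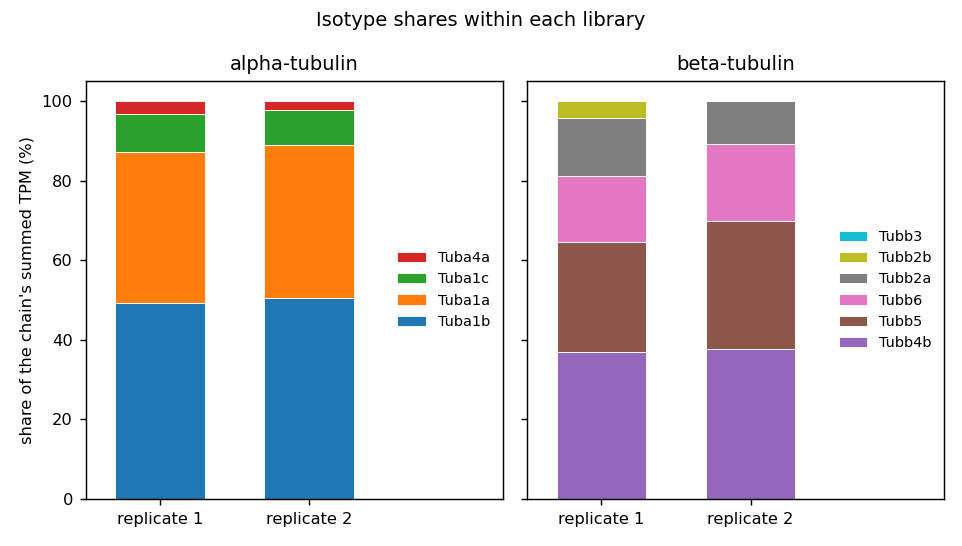
Share of each isotype in the summed TPM of its chain, in percent, as a stacked bar per library, alpha on the left and beta on the right. Tuba1b and Tuba1a fill 87.1% and 88.8% of the alpha bars, and the Tubb2b segment, 4.25% in replicate 1, is too thin to see in replicate 2.

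The members summed to 2800 TPM in replicate 1 and 3039 TPM in replicate 2, a mean of 2919 ± 169 TPM (SD, n = 2), or 0.280% and 0.304% of mouse TPM. Alpha mRNA exceeded beta mRNA in both libraries, although the heterodimer holds them 1 to 1: the alpha genes summed to 1831 and 1881 TPM (1856 ± 35.7) and the beta genes to 969 and 1158 TPM (1063 ± 134). The ratio was 1.89-fold and 1.63-fold, a log2 of 0.81 ± 0.15. Before division by length, in expected counts, the log2 was 0.62. How much of each mRNA was translated was not measured.

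Each abundant isotype had levels within 2-fold in the libraries, and Tubb2b did not. At a mean of 100 to 1000 TPM, none of the 7 members (Tuba1a, Tuba1b, Tuba1c, Tubb2a, Tubb4b, Tubb5, Tubb6) was over 2-fold apart on log2(TPM + 1), and their log2 differences ran from -0.16 to 0.48. Of all 1090 genes at that level, 21.4% were over 2-fold apart. The median absolute difference was 0.16 for the members and 0.54 for all genes, and each of the 7 differed by less than that 0.54. This is a description of these libraries, with no test.

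At 10 to 100 TPM, where 53.4% of 5137 genes were over 2-fold apart, Tuba4a was not and Tubb2b was. Tuba4a differed by -0.42, on 3116 and 1541 expected counts. Among the 8266 genes averaging at least 5 TPM, 54.6% were over 2-fold apart, as was 1 of the 9 members at that level, and the median log2 difference was 0.06 for the members and 0.01 for all genes.

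Directions between the libraries depend on the scaling, since the libraries were set to an equal total of mouse TPM. Scaled to the spike-in RNA, which took 2.40% of counts in replicate 1 and 1.27% in replicate 2, every gene moved by 0.94 on the log2 scale toward replicate 2. Then 5 members were over 2-fold apart, Tubb2b (-4.22), Tubb6 (1.42), Tubb5 (1.41), Tubb4b (1.22) and Tuba1b (1.01), while Tuba1c, Tuba4a, Tubb2a and Tubb3 turned from lower to higher in replicate 2. Relative to that shift the members lay as before. The sign of Tuba1a turned to -0.02 with TMM factors (edgeR) and to -0.05 with size factors (DESeq2), and that of Tuba1b to -0.03 with the latter. Tubb2b was lower in replicate 2 under each of these scalings.

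Tubb2b had the largest difference between the libraries of the 10 members. Tubb3, too low for the 2-fold rule, was next in TPM, at 3.16-fold higher in replicate 1. For Tubb2b, replicate 1 held 2426 expected counts and replicate 2 held 9.14. Its TPM was thus 224-fold higher in replicate 1, and its counts per 1000000 were 219-fold higher. Tubb2b ranked 2585 of the protein-coding genes in replicate 1 and 8439 in replicate 2. Its neighbour Tubb2a, with which it shares reads, had 6767 and 5127 counts and differed by -0.16. Many genes of this level were under 1 TPM in 1 library. Replicate 1 had 4879 genes at 10 to 100 TPM, of which 20.1% were under 1 TPM in replicate 2, and of 4991 such genes the other way round, 22.2% were. At 100 to 1000 TPM in replicate 1 it was 3 of 1100 genes, or 0.273%. Whether the difference in Tubb2b came from the hearts, from which molecules entered the aliquot or from amplification cannot be told apart here.

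**Figure D3:**
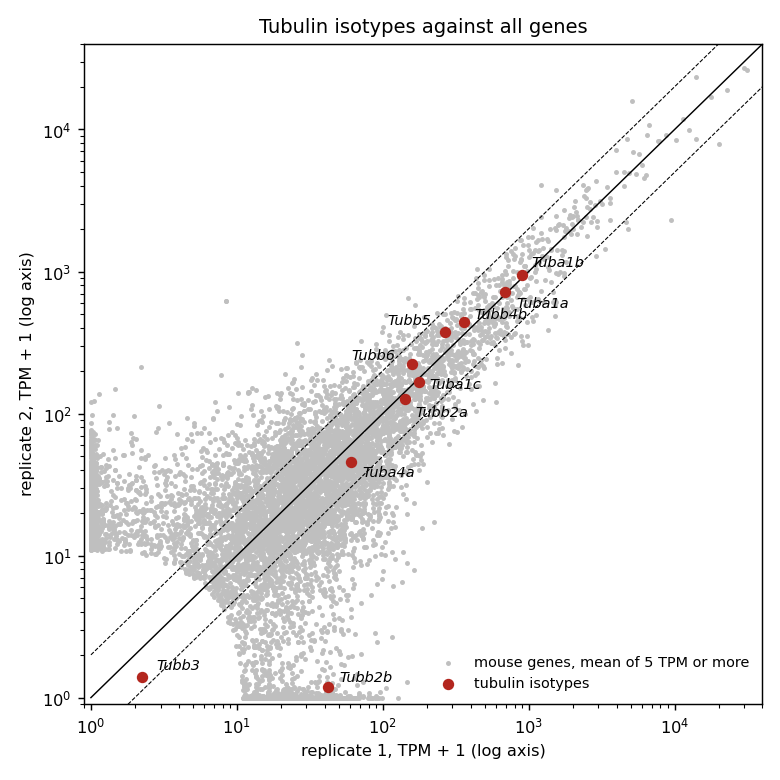
TPM + 1 in replicate 2 against replicate 1, both axes logarithmic; grey points are the 8266 genes averaging at least 5 TPM, red points the 10 isotypes, the solid line is equality and the dashed lines 2-fold. The 7 isotypes averaging at least 100 TPM lie inside the dashed lines, while Tubb2b lies on the lower edge among genes read in replicate 1 only.

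The tissue label was set against markers of cell types, each list given by its summed TPM in replicate 1 and 2. Both libraries read all 7 cardiomyocyte markers (38665 and 65817 TPM, led by Actc1), all 7 fibroblast (1143 and 963 TPM), 6 endothelial (1318 and 1370 TPM), 7 smooth muscle and pericyte (1077 and 1627 TPM, led by Acta2, which young myocytes also use) and 5 cell-division genes (511 and 397 TPM, led by Cdk1). The list of dividing cells summed lower in replicate 2, by less than the spike-in shift, while Tubb5 read higher there, and its part in the level of Tubb5 was not tested. Of 8 neuron markers none reached 1 TPM, their sums were 0.781 and 0.787 TPM, and 3 of them, Prph and Th included, had 0 counts in both libraries. Of 4 Schwann cell markers none did, at sums of 0.0104 and 0 TPM. The sum of the neuron list was thus nearly equal in the library with Tubb2b at 41.2 TPM and in the other, and the part of such cells in Tubb2b was not tested. Of 5 macrophage markers 2 were read in both libraries (93.0 and 88.2 TPM), and of 5 platelet markers 1 (102 and 22.6 TPM, led by Pf4).

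Of the remaining 10 tubulin genes of the annotation, Tubg1 had a level like that of Tuba4a, and the others were lower or had no counts. Tuba3a, Tuba3b and Tuba8, alpha genes known from testis and muscle, the divergent alpha gene Tubal3, the platelet beta gene Tubb1 and the epsilon gene Tube1 had 0 counts in both libraries, which by counting error alone allows up to 0.0756 and 0.0916 counts per 1000000. Tubb4a, a beta isotype of brain, was likewise read in replicate 1 only, with 15.3 TPM on 1054 counts in replicate 1 and 0.102 TPM on 6 counts in replicate 2. The delta gene Tubd1, which serves centrioles, had 19.2 TPM on 1071 counts and then 0 counts. Tubg1, the gamma-tubulin of the nucleating ring, had 45.1 and 86.6 TPM (65.8 ± 29.3), and its close relative Tubg2 had 0.0417 and 0.0511 TPM.

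For most members 1 transcript carried the gene. A single listed transcript is all that 5 members have, and 5 have more, of which in 4 the same one led in both libraries: Tuba1a-201 (97.27% and 99.95% of the gene's TPM), Tuba1b-201 (97.75% and 99.94%), Tubb4b-201 (99.90% and 99.86%) and the longest model of Tubb5 (99.52% and 99.07%). Tuba4a, with 8 listed, was the exception. Tuba4a-201 led in replicate 1 (55.47%, against 25.39% in replicate 2) and the shorter Tuba4a-206 in replicate 2 (50.66%, against 31.63% in replicate 1), and the order was the same in expected counts. A further 9.73% and 11.73% lay on Tuba4a-205, annotated as a retained intron. These models overlap, and how reads are divided among them is an estimate.

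The Tuba1 genes have the fewest stretches that are theirs alone. Stretches of 100 nt were used because the deposited effective lengths are 99 nt below the lengths. Of these, 34.9% in Tuba1a, 30.5% in Tuba1b and 46.6% in Tuba1c are found in no other gene. Within the coding part the shares were 19.6%, 9.07% and 19.6%, so most stretches found in no other gene, pseudogenes included, touch an untranslated end. For Tubb2a and Tubb2b it was 63.1% and 72.3%, with 543 stretches common to both, and for Tubb4b 70.8%, with 411 stretches in common with the pseudogene Tubb4b-ps1. For Tuba4a, Tubb3, Tubb5 and Tubb6 every stretch was their own.

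The deposited posterior SDs give the certainty of how reads were divided within a library, and hold no spread between hearts. The SD of the count was 0.315% and 0.316% of the count for Tuba1a and 1.06% and 1.13% for Tuba1c. For Tubb2b it was 30.5 counts of 2426 in replicate 1 and 2.3 counts of 9.14, or 24.0%, in replicate 2. For Tubb5 and Tubb6 the SD was 0.

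**Figure D4:**
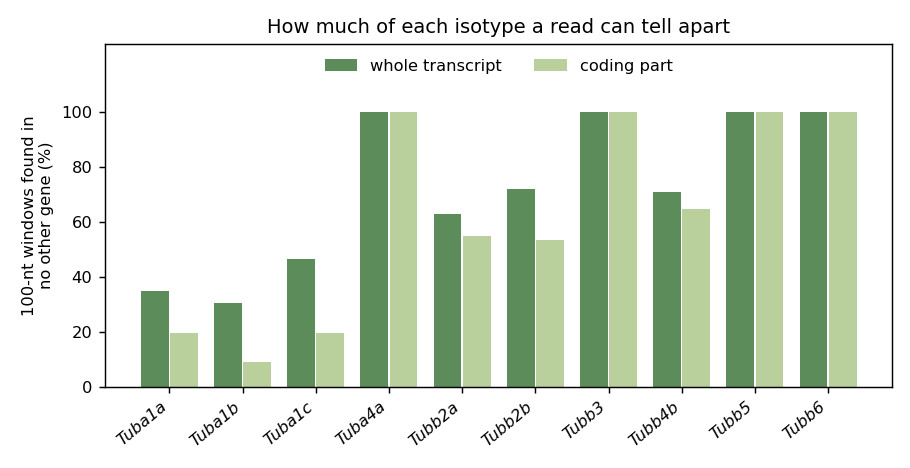
Percent of 100-nt stretches of each isotype's transcript that occur in no other gene, dark for the whole transcript and light for its coding part. The 3 Tuba1 genes have the fewest stretches of their own, 30.5% to 46.6% of the whole transcript, and Tuba4a, Tubb3, Tubb5 and Tubb6 have 100%.

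The genes that fold, join, modify, nucleate, bind or cut tubulin were read in part. Of 87 such genes, both libraries read 46, 1 library read 19 and neither read 22. Of the 57 averaging at least 5 TPM, the ones tested below, 28 were over 2-fold apart, a share near the 54.6% of all genes at that level, and their median log2 difference was 0.37. The chaperonin and its partner prefoldin, which fold both chains, were the fullest list: 13 of 14 genes were read in both libraries, the sums were 2348 and 2354 TPM, and 2 of 14 were over 2-fold apart. By level, that was 0 of 11 genes at 100 to 1000 TPM, where 21.4% of all genes were, and 2 of 3 genes at 10 to 100 TPM, where 53.4% of all genes were. Pfdn5 had 481 and 378 TPM, Cct5 309 and 345 TPM and Cct3 185 and 293 TPM. Pfdn4, another prefoldin subunit, had 0.177 and 32.2 TPM, and Vbp1 103 and 49.7 TPM. These counts of genes rest on TPM. Pfdn2 had 42.7 and 32.2 TPM but 2230 and 533 expected counts, so its difference was larger before division by length.

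Cofactors that assemble the dimer were led by Tbca, which holds beta chains, at 223 and 182 TPM, followed by the alpha-binding Tbcb at 75.4 and 109 TPM and the GTPase Arl2 at 48.9 and 29.3 TPM. Of this list 4 of 7 genes were read in both libraries and 2 of the 5 at the tested level were over 2-fold apart. Of all genes at that level, 54.6% were over 2-fold apart. Tbce had 0.656 and 16.8 TPM. Ttc5, which triggers decay of tubulin mRNA, had 6.62 and 16.8 TPM. The gamma-tubulin ring, which starts new microtubules, had 4 of 10 genes in both libraries, with Mzt1 at 43.0 and 62.6 TPM and Tubgcp3 at 24.96 and 15.1 TPM. Mzt2 had 0.0313 and 37.7 TPM, and 4 of 7 tested genes were over 2-fold apart, beside the same 54.6% of all genes.

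None of the listed genes of tubulin modification, at the tail or by acetylation, reached 100 TPM in either library. Of 7 genes of tyrosination and acetylation, 3 were read in both libraries and 5 of 5 tested were over 2-fold apart, with 2 higher and 3 lower in replicate 2. Most of these lie at 10 to 100 TPM, where 53.4% of all genes were over 2-fold apart. The deacetylase Sirt2 had 93.7 and 18.6 TPM, Svbp, the partner of the vasohibins that remove the tyrosine, 22.1 and 89.3 TPM, and the deacetylase Hdac6 34.3 and 9.61 TPM. Vash2, a vasohibin, had 30.3 and 0 TPM, and Ttl, the ligase that restores the tyrosine, 0.886 and 0.368 TPM. Of 16 genes of glutamylation and glycylation, 11 had 0 counts in both libraries. The 4 tested were all over 2-fold apart in TPM, with 2 in each direction. Of all genes averaging at least 5 TPM, 54.6% were over 2-fold apart. The 4 were Ttll5 (7.04 and 42.5 TPM), Ttll1 (19.6 and 5.63 TPM), Agtpbp1 (5.11 and 16.0 TPM) and Ttll4 (13.9 and 1.503 TPM). By expected counts Agtpbp1 was lower in replicate 2, at 365 and 205, so its direction depends on the division by length.

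Of 21 binding proteins, 9 were read in both libraries, and 7 of 13 tested were over 2-fold apart. Of all genes at the tested level, 54.6% were over 2-fold apart. The median log2 difference was 0.94 for the binding proteins tested and 0.01 for all genes at that level. Stmn1, which sequesters free dimers, led at 498 and 617 TPM, above all beta isotypes. The plus-end proteins Mapre2 and Mapre1 had 216 and 135 TPM and 181 and 59.5 TPM. Map1a had 0.0313 and 45.3 TPM. Of 12 severing and motor genes, 9 were read in both libraries and 4 of 9 tested were over 2-fold apart, beside the same 54.6% of all genes. The dynactin subunit Dctn2 had 110 and 119 TPM, the dynein chain Dync1li1 85.1 and 77.6 TPM and the kinesin Kif5b 63.2 and 82.5 TPM.

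**Figure D5:**
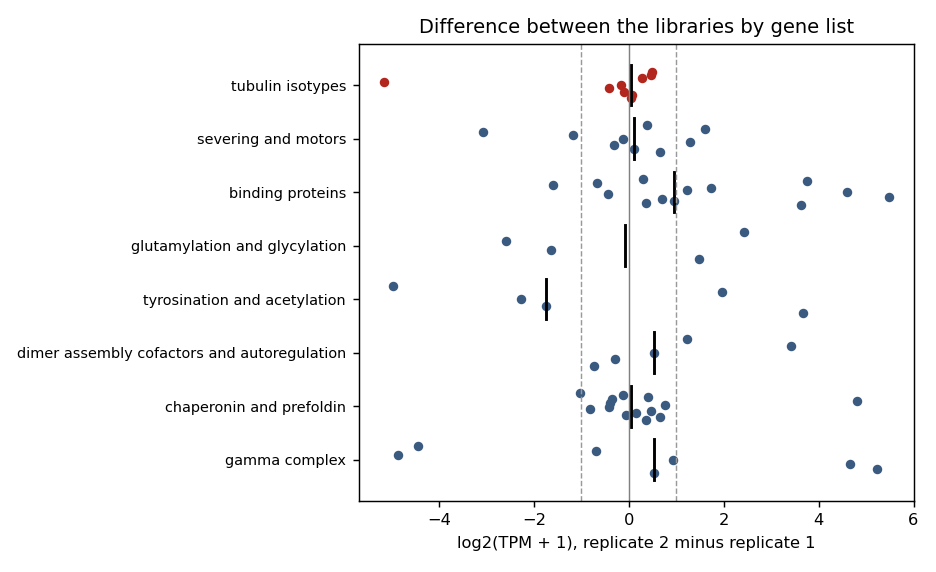
Difference between the libraries, log2(TPM + 1) of replicate 2 minus replicate 1, for each gene averaging at least 5 TPM, by list; the black bar is the list's median and the dashed lines mark 2-fold. The isotypes other than Tubb2b lie between -0.42 and 0.48, and 12 of the 14 chaperonin and prefoldin genes lie within 2-fold.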

How the data were processed

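The authors deposited, for each library, tables that hold, per the file headers, expected counts per gene and transcript with a posterior mean and SD. They also deposited TPM, which divides expected counts by effective length, and each transcript's percent of its gene. The deposited notes name mm10 and GENCODE M4; the aligner, quantifier and strand rule were not given in the sources used here. The 96 spike-ins and 26248 numbered rows were left out, and TPM was rescaled to 1000000 over 43346 mouse genes. Names, positions and models came from GENCODE M21, matched by identifier without version (42462 matched), so a gene model can differ from the authors'.

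The depth was 40648662 expected counts in the first replicate and 33173354 in the other, of which 39671930 and 32751851 were on mouse genes. Reads carried no molecular identifiers that the sources name, so intervals and limits of 3 counts cover counting error only. Genes were called read at 1 TPM, ratios used a pseudocount of 1, and "over 2-fold" refers to log2(TPM + 1), which understates low genes. A model without a start codon, Tuba4a-201, was replaced by Tuba4a-202 for its frame. Pseudogene copies were aligned with minimap2 2.31-r1302 (90% identity, 50% of the length). Calculations used Python 3.11.15, numpy 2.4.6, pandas 2.3.3, scipy 1.17.1, Biopython 1.88 and R 4.3.3, with edgeR 4.0.16 and DESeq2 1.42.0 for scaling factors on rounded expected counts.

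The members and gene lists were chosen with earlier results of these data known. Named were all tubulin genes and, per list, the 3 highest members and the one with the largest difference. Vbp1, Pfdn2, Ttc5 and Ttl, Prph, Th and the pseudogenes were named after their values were seen. Some items that the rule names are not reported here. Genes alike in pattern were not sought, since 1 group gives no pattern. Alternatives covered unit, pseudocount, scaling, filters, denominators, pseudogene copies and each replicate left out.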

Additional observations from a re-analysis of the deposited data

How the results depend on the processing

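With expected counts in place of TPM, the Tubb4b share of beta was 30.4% (37.4% in TPM), log2 alpha over beta 0.62 (0.81), log2 Tubb4b over Tubb5 -0.43 (0.33) and log2 Tubb6 over Tuba1c -0.043 (0.14). The Tubb5 share of beta was 41.1% (29.9%), the Tuba1a share of alpha 36.3% (38.05%) and the Tuba1c share of alpha 10.7% (9.21%). Each of these shares moved by more than the SD between the libraries. Counts are not divided by length, and Tubb5 is the longest of these transcripts. Scaling to spike-ins put 5 members over 2-fold apart in place of 1 and 65.4% of all genes in place of 54.6%. With a pseudocount of 0.1 that percent was 55.8%, and over all genes, most of them near 0, it was 15.1%. Posterior means, pseudogene copies added to their member and all tubulin genes in the denominator moved no share or alpha-to-beta ratio by more than the SD between the libraries. Without replicate 1 or 2, log2 alpha over beta was 0.70 or 0.92, the Tubb4b share 37.8% or 37.0%, and the Tubb2b share 0.0159% or 4.25%, so that replicate 1 alone carries Tubb2b. The order, the ratios between libraries, the leading transcripts and the companion lists need both libraries and were not repeated with 1. With 5 TPM in place of 1 TPM, 41 companion genes were read in both libraries, and with posterior means 49, in place of 46. No paired analysis was possible because the series has 1 group. Counting error is widest for Tubb3, on 70 and 19 counts, and for Tubb2b in replicate 2, on 9.14.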

Other observations

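Pseudogene copies of the members took few reads. Of 15 pseudogenes whose transcript aligned to a member at 90% identity or more, 9 were in the tables, and they summed to 9.19 TPM in replicate 1 and 13.8 TPM in replicate 2. The highest was Gm14150, a copy of Tuba1b on chromosome 2, at 5.13 and 5.03 TPM. Next by mean TPM was Gm6682, a copy of Tuba1c on chromosome 12, at 1.03 and 3.78 TPM on only 6.6 and 20.5 expected counts. Gm17383, a copy of Tuba1b on chromosome 18, stood above it in replicate 1, at 1.70 and 2.61 TPM on 51.8 and 67.4 counts. Near-identical copies share reads with their parent by estimation, so these levels are uncertain.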
